A study of Mus musculus with 12 samples.

Results

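The ATP-binding cassette (ABC) genes were read in mouse yolk sac with and without ectopic Norrin. Members were the genes whose symbol is Abc, a subfamily letter and a number in the annotation of the Affymetrix mouse whole-genome array used, taken from probe sets that map to that gene alone. This gave 45 members of the 18193 genes measured, with 14 in subfamily A, 8 in B, 10 in C, 3 in D, 1 in E, 3 in F and 6 in G. They were covered by 92 probe sets. The 19 members with 1 probe set were read from it, and each of the other 26 from the probe set with the highest mean over the 12 arrays. The choice used no difference between groups.

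There were 4 groups of 3 arrays. Norrin, a secreted ligand of the receptor Frizzled4, was over-expressed from a conditional allele in the Z/Norrin yolk sacs, called Norrin here, at embryonic day 10.5 (E10.5) and E8.5. Wild type yolk sacs of E10.5 and E8.5 were their controls. Each array held RNA pooled from 3 to 5 embryos of mixed gender on a C57Bl6/129 mixed background. The replicates are separate pools, so p-values measure the spread between pools. Which cells activate the allele, and when, is not given in the sources used here. Values are deposited log2 expression levels, and a difference of 1 is a 2-fold difference.

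ABC proteins bind and hydrolyse ATP with a conserved cassette, and most use it to move a substrate across a membrane. Subfamilies A and G hold many exporters of sterols and phospholipids, B and C hold exporters of drugs, bile salts and conjugates together with mitochondrial transporters, and D holds transporters of peroxisomes and lysosomes. Members of E and F have the cassette but no membrane domain, and act in ribosome recycling and translation. The visceral endoderm of the yolk sac takes up maternal nutrients and secretes lipoproteins before the placenta works, a task that rests on sterol and lipid carriers, and P-glycoprotein is best known from barrier endothelium and absorptive epithelium.

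Array medians ran between 6.97 and 7.01 at E10.5 and between 6.59 and 6.73 at E8.5. Arrays of a group correlated at 0.975 to 0.992 across the 18193 genes. The Norrin gene Ndp averaged 4.49 ± 0.05 in Norrin and 4.49 ± 0.06 in wild type at E10.5, and 4.54 ± 0.09 in Norrin against 4.59 ± 0.10 in wild type at E8.5 (SD, n = 3). Whether its probe set covers the transgene is not given in the sources used here, so it checks nothing about the labels. The tissue label was met by its markers: the 7 measured markers of visceral endoderm, Afp and Ttr among them, had log2 levels of 11.96 to 14.78 on every array. Norrin pools held less of that list than wild type pools at both stages. The mean log2 level of the list was 13.42 to 13.54 in Norrin and 13.76 to 13.87 in wild type at E10.5, and 13.22 to 13.45 in Norrin and 13.78 to 13.86 in wild type at E8.5. A pair of libraries stood apart in placental transcripts: the mean of 7 trophoblast markers was 8.59 in Norrin E10.5 replicate 2 and 7.73 in Norrin E8.5 replicate 2, against 6.12 to 6.90 in the other arrays. A fit without both, chosen after the data were seen, left 2 arrays in each Norrin group. Below, its values stand beside the counts of calls and the named calls that it changed. The fits with the replicate block were not repeated without these pools.

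The 2 members called in Norrin against wild type at E10.5, Abcb1a and Abcb1b, encode P-glycoprotein, the multidrug efflux pump. The mouse has 2 such genes side by side on chromosome 5, with Abcb1a at chr5:8567091-8748575, Abcb1b at chr5:8798147-8866314 and the phospholipid exporter Abcb4 at chr5:8893614-8959226 (RefSeq genes, GRCm38.p6). Norrin signals through beta-catenin, whose DNA-binding partners are the TCF/LEF factors. The Abcb1b call was kept in only 5 of the 12 fits that left out 1 array. The 250 bases upstream of each start site are shown because Abcb1a and Abcb1b carry the Norrin calls at E10.5. They come from RefSeq on GRCm38.p6, both from the plus strand, written 5′ to 3′. Abcb1a spans chr5:8566841-8567090 and Abcb1b spans chr5:8797897-8798146. Capitals mark matches on either strand. The motifs searched were the core that TCF/LEF factors bind, CTTTGA, and a core motif of nuclear receptors, AGGTCA, called the receptor site here. A match to AGGTCA does not tell which receptor could bind. Also searched were the CCAAT box with its own letters as motif, and the GC box that Sp factors bind, GGGCGG.

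Abcb1a: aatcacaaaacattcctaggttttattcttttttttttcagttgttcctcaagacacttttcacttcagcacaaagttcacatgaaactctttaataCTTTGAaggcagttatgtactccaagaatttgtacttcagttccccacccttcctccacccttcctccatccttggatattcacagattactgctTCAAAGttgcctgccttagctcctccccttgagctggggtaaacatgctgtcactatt

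Abcb1b: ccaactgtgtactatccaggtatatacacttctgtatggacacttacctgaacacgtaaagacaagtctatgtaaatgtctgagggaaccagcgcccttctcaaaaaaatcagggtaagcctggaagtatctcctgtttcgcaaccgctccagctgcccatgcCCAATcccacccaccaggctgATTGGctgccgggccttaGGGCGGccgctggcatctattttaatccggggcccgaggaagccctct

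The Abcb1a window held 2 TCF/LEF core matches and none of the other motifs. The Abcb1b window held 2 CCAAT boxes and 1 GC box, and no TCF/LEF core. Of 32851 mouse promoter windows of the same length, 13.8% held the TCF/LEF core and 1.37% held it at least 2 times. The CCAAT box was found in 33.8% of windows, the GC box in 32.7% and the receptor site in 14.0%. Matches did not overlap. In the 42 windows found for 35 members, the TCF/LEF core and the receptor site were each present in 7, the CCAAT box in 12 and the GC box in 20. A match is a description of these letters and does not show that a factor binds there.

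At E10.5, Abcb1a was measured at 6.11, 6.60 and 5.82 in the Norrin pools, against 8.84, 9.19 and 8.55 in the wild type pools. The groups lay more than 1 log2 unit apart at their nearest arrays. The mean was 6.18 ± 0.40 in Norrin and 8.86 ± 0.32 in wild type (SD, n = 3), which is 6.42-fold lower in Norrin (log2 -2.68, SE 0.20, limma adjusted p = 2.9e-05). A second probe set of the gene gave -3.07. The call held in each of 12 fits that left out 1 array, and without Norrin E10.5 replicate 2, the pool rich in trophoblast transcripts, the difference was -2.90 (adjusted p = 0.000201 without both trophoblast-rich pools). In bulk tissue, fewer cells of a type and less RNA per cell cannot be told apart.

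Abcb1b was measured at 6.83, 8.12 and 8.83 in Norrin E10.5, against 9.51, 10.97 and 9.64 in wild type E10.5. All 3 Norrin pools were below all 3 wild type pools, with a wider spread within each group than for Abcb1a. The mean was 7.93 ± 1.02 in Norrin and 10.04 ± 0.81 in wild type (SD, n = 3). The gene was 4.32-fold lower in Norrin (log2 -2.11, SE 0.50, limma adjusted p = 0.0354). The call was kept in 5 of the 12 fits that left out 1 array, with adjusted p between 0.0282 and 0.135. It was lost without any 1 of the wild type E10.5 arrays, Norrin E10.5 replicate 1, Norrin E10.5 replicate 2 (0.0709), Norrin E8.5 replicate 2 (0.0548) or wild type E8.5 replicate 1. It was also lost in a fit to the arrays of E10.5 alone (adjusted p = 0.0975), with a trended and robust limma prior (0.0576), with the replicate number as 1 block across both stages (0.0570), and without both trophoblast-rich Norrin pools (-2.21, adjusted p = 0.104). A second, dim probe set of Abcb1b, with a mean of 5.76 over 12 arrays, gave -0.08, and the mean of both gave -1.09. The 2 genes are close paralogs, and whether each probe set reads its own gene alone was not tested.

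Abcb4, the canalicular phosphatidylcholine exporter that lies next in the row, lay the other way. It was measured at 8.38, 8.15 and 8.39 in Norrin E10.5 and at 8.02, 7.96 and 7.96 in wild type E10.5. The Norrin pools were the higher ones, without overlap, by 0.32 (limma adjusted p = 0.268). With replicate number within each stage as a block (same-numbered pools deviated together), its adjusted p was 0.0425.

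**Figure D1:**
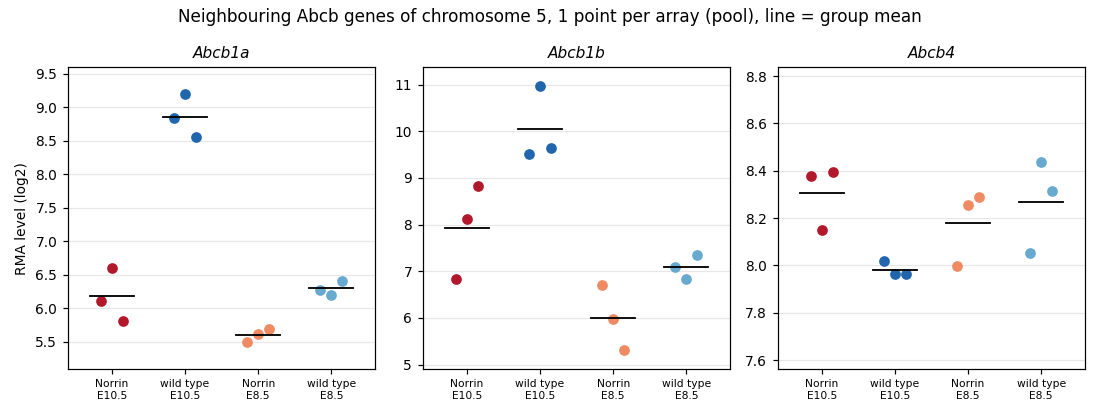
Log2 expression level (RMA) of the 3 neighbouring Abcb genes of chromosome 5 in each of 12 pools, with 1 point per array, a line at each group mean and a separate vertical scale for each gene. For Abcb1a the Norrin E10.5 pools lie between 5.82 and 6.60 and the wild type E10.5 pools between 8.55 and 9.19, while for Abcb4 the Norrin E10.5 pools are above the wild type ones.

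Across the family, 0 members were higher and 2 were lower in Norrin at E10.5, or 4.44% of members against 4.07% of all genes (1.85% higher and 2.22% lower). At an unadjusted p under 0.05 there were 8 members, 3 higher and 5 lower, or 17.8% against 14.0% of all genes. The Norrin and wild type pools did not overlap for 12 members, or 26.7% against 22.9% of all genes. The number of members called is near the background. Without both trophoblast-rich Norrin pools 1 member, Abcb1a, was called, against 2.64% of all genes, and with array weights 8 were, against 12.7%. The median member differed by -0.09 and the median gene by -0.00, with 29 of 45 members below 0 (64.4%, against 51% of all genes). The other 43 members lay between -0.79 and 0.62, so none of them differed by a factor of 2.

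**Figure D2:**
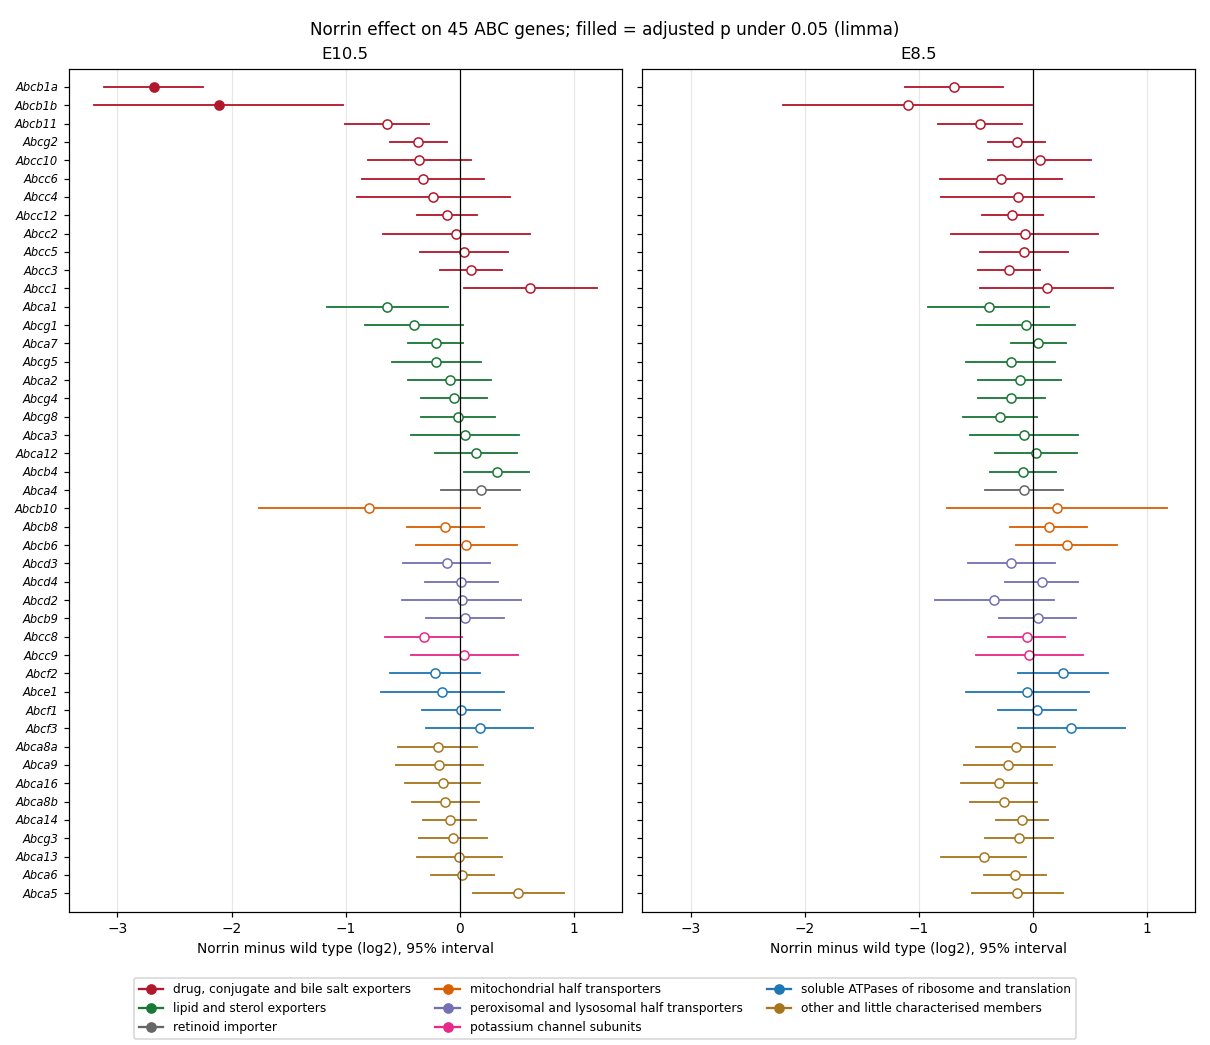
Norrin minus wild type difference (log2) of each of the 45 members at E10.5, left, and E8.5, right, with its 95% interval from limma, grouped by role. The filled points, Abcb1a at -2.68 and Abcb1b at -2.11, are the calls at E10.5, and no point is filled at E8.5.

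Among the other exporters of drugs, conjugates and bile salts, Abcb11 and Abcg2 had the next largest negative differences at an unadjusted p under 0.05. Abcb11, the bile salt export pump, was at 7.15, 7.15 and 7.42 in Norrin E10.5, against 8.14, 7.71 and 7.79 in wild type E10.5. The groups did not overlap, and the difference was -0.64 (SE 0.17, limma adjusted p = 0.0586). It passed the threshold with the block (adjusted p = 0.0141), as it did with arrays centred on their medians (0.0457) and with all arrays quantile-normalized together (0.0261). Without both trophoblast-rich pools Abcb11 differed by -0.59 (adjusted p = 0.222).

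Abcg2, the breast cancer resistance protein, which exports porphyrins and sulphated conjugates, was at 11.86, 11.70 and 11.93 in Norrin E10.5, against 12.22, 12.13 and 12.23 in wild type E10.5. The groups lay apart by a small step of -0.36 (SE 0.11, limma adjusted p = 0.121, 0.0182 with the block). Abcc1, the glutathione conjugate exporter MRP1, lay the other way, at 7.57, 8.05 and 7.70 in Norrin E10.5 against 7.33, 6.75 and 7.37 in wild type E10.5 (0.62, limma adjusted p = 0.307). Abcc3, a basolateral exporter of glucuronides, had non-overlapping groups for a difference of 0.10. The remaining 6 exporters of this role, Abcc2, Abcc4, Abcc5, Abcc6, Abcc10 and Abcc12, differed by -0.36 to 0.04, with overlapping groups.

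Of the 10 exporters of sterols and phospholipids, none was called at E10.5, and 1 was with the block (Abcb4, above). Abca1, which loads cholesterol onto apolipoprotein A-I, was at 10.84, 11.07 and 11.34 in Norrin E10.5, against 11.38, 12.08 and 11.69 in wild type E10.5. The highest Norrin pool was just under the lowest wild type pool, and the difference was -0.63 (SE 0.24, limma adjusted p = 0.229, 0.0634 with the block). The other 2 probe sets of Abca1 gave -0.52 and -0.44. Abca7, a phospholipid exporter related to Abca1, differed by -0.21 with groups that did not overlap.

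Abcg5 and Abcg8, which pair to form the sterol exporter of liver and intestine, overlap each other on chromosome 17 and were not called at E10.5. Abcg5 differed by -0.21 and Abcg8 by -0.01. Abcg1, a cholesterol exporter to high density lipoprotein, had a difference of -0.40 with overlapping groups. Abcg4, a sterol exporter best known from brain, gave -0.05 in its main probe set, although the groups did not overlap, and -0.77 in the other. It was called lower in Norrin at E10.5 when the more variable probe set of each gene was used. Abca2, Abca3 and Abca12 lay between -0.09 and 0.14.

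Abcb10, a transporter of the mitochondrial inner membrane needed for haem synthesis in red cell precursors, was at 9.69, 9.56 and 9.73 in Norrin E10.5, against 10.29, 10.56 and 10.51 in wild type E10.5. The 2 groups were tight and apart at E10.5, but those of E8.5 were not, at 10.50, 10.87 and 9.32 in Norrin and 10.81, 10.39 and 8.87 in wild type, where replicate 3 was low in both. That spread enters the shared error, and the E10.5 difference of -0.79 (SE 0.44) was not called (limma adjusted p = 0.506). With the block its adjusted p was 0.0117, and in a fit to the 6 arrays of E10.5 alone 0.0135. Its other probe sets gave -0.82 and -0.27. Erythroid markers moved with it: 7 of 9 were lower in Norrin at E10.5, the sum of their log2 levels was 90.5 to 91.1 in Norrin and 97.4 to 107.7 in wild type, and their part in the result was not tested. Of these markers 5 of 9 were called without Norrin E10.5 replicate 2 and 1 of 9 without both trophoblast-rich pools, with medians of -1.58 in either fit against -1.64 with all arrays. Abcb8 and Abcb6, the other mitochondrial members, differed by -0.13 and 0.06.

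**Figure D3:**
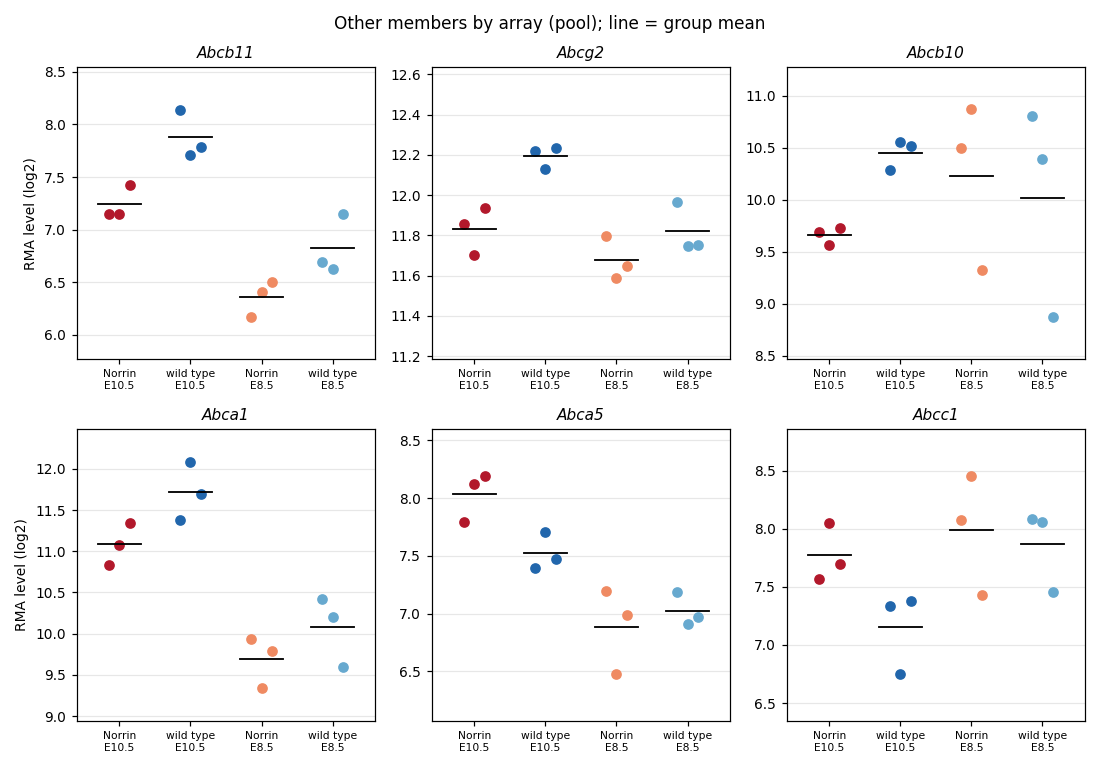
Log2 expression level (RMA) of 6 further members in each of the 12 pools, with 1 point per array and a line at each group mean. In these genes the Norrin E10.5 and wild type E10.5 points do not overlap, and replicate 3 of Abcb10 is low in both E8.5 groups.

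Among members with other tasks, Abca5, a lysosomal protein of the Abca8 group of genes, was at 7.79, 8.12 and 8.20 in Norrin E10.5, against 7.39, 7.70 and 7.47 in wild type E10.5. The Norrin pools were higher without overlap (0.51, limma adjusted p = 0.181, 0.0212 with the block), while its second probe set gave 0.19. The retinoid importer Abca4 differed by 0.18, and the potassium channel subunits Abcc8 and Abcc9 by -0.31 and 0.04. The peroxisomal and lysosomal transporters Abcd2, Abcd3, Abcd4 and Abcb9 stayed between -0.11 and 0.05, and the soluble ATPases Abce1, Abcf1, Abcf2 and Abcf3 between -0.21 and 0.18. The other 8 little characterised members, Abca6, Abca8a, Abca8b, Abca9, Abca13, Abca14, Abca16 and Abcg3, lay between -0.19 and 0.02. With the block, 7 members were called at E10.5, 2 higher (Abca5, Abcb4) and 5 lower (Abcb1a, Abcb1b, Abcb10, Abcb11, Abcg2), against 13.2% of all genes (6.39% higher and 6.80% lower).

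Transcription factors that are known to control ABC genes were read beside them. Of 15 measured, 3 fell in Norrin at E10.5 and 0 rose (6 fell with the block). Of all genes, 2.22% were lower and 1.85% higher, or 6.80% and 6.39% with the block. Nr1h4, the bile acid receptor FXR, which controls the bile salt pump, averaged 6.47 ± 0.43 in Norrin and 8.49 ± 0.21 in wild type (SD, n = 3), a difference of -2.02 (limma adjusted p = 0.000633). Nr1h3, the oxysterol receptor LXR alpha, which controls Abca1 and Abcg1, fell by 0.93 and Hnf4a, a master regulator of hepatocytes and visceral endoderm, fell by 0.71. The median of the list was -0.21, against -0.00 for all genes. Of 17 measured partners of ABC proteins, 2 fell and 1 rose at E10.5 (4 fell and 3 rose with the block). Fech, the ferrochelatase that makes haem in mitochondria, fell by 0.98 and Apoa1, the acceptor of cholesterol from Abca1, fell by 0.78. Kcnj8, the channel pore that pairs with Abcc9, rose by 0.57. Without both trophoblast-rich pools the calls of Hnf4a (-0.64, adjusted p = 0.0690) and Kcnj8 (0.60, 0.128) were lost, and those of Nr1h4 (-2.26, 0.000840), Nr1h3, Fech and Apoa1 were kept. The call of Kcnj8 was lost without either of the 2 pools. At E8.5 limma called 0 genes of either list (0.0770% of all genes), as did the fit with the block (1.41%). The part of the genes of both lists in the ABC differences was not tested. The ABC proteins Tap1, Tap2 and Cftr, which carry other symbols, differed by -0.24, -0.13 and 0.11 at E10.5, with 0 of 3 called at either stage.

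Other tissue markers also differed between the pools. At E10.5, 1 of 7 visceral endoderm markers was lower (Apoa4; 3 with the block), and the sum of their log2 levels was 93.9 to 94.8 in Norrin and 96.3 to 97.1 in wild type. Of 8 endothelial markers, 0 were called (1 higher with the block), and the sums overlapped, at 64.7 to 67.5 in Norrin and 64.0 to 67.6 in wild type. Mesenchymal markers were higher for 2 of 8 (4 with the block) and parietal endoderm markers for 3 of 8 (6 with the block). Decidua markers were higher for 1 of 8 (4 higher and 1 lower with the block). Of the macrophage markers 1 of 8 was lower. Of the neural and trophoblast lists, 0 of 8 and 0 of 7 were called (1 neural marker higher with the block). For comparison, 1.85% of all genes were higher and 2.22% lower, or 6.39% and 6.80% with the block. No marker of these lists is at 0, since the scale has none. Without both trophoblast-rich pools, 1 mesenchymal, 3 parietal endoderm, 1 decidua and 1 neural marker were higher, and 1 visceral endoderm and 1 macrophage marker lower. The part of these markers in the ABC differences was not tested.

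At E8.5, limma called 0 members, against 0.0770% of all genes. It called 0 against 0.00550% without both trophoblast-rich Norrin pools, and 18 against 28.3% with array weights. That weighted fit rested mostly on replicate 2 of each E8.5 group, and the Norrin one is trophoblast-rich. Of the 45, 4 had an unadjusted p under 0.05, all lower, or 8.89% against 7.22% of genes, and 7 had non-overlapping groups, or 15.6% against 11.9%. The median member differed by -0.11 and the median gene by -0.02, and 33 of 45 members were below 0 (73.3%, against 53.9% of all genes). Abcb1a was at 5.50, 5.62 and 5.69 in Norrin E8.5, against 6.28, 6.20 and 6.41 in wild type E8.5. The groups did not overlap, and the difference of -0.69 (SE 0.20) had a limma adjusted p of 0.416. The block changed the call, with an adjusted p of 0.0113, and Abcb1a was then the 1 member called against 1.41% of all genes.

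Abcb1b was at 6.70, 5.98 and 5.31 in Norrin E8.5, against 7.10, 6.84 and 7.35 in wild type E8.5. It lay on the same side without overlap, at -1.10 (SE 0.50, limma adjusted p = 0.690, 0.173 with the block). Abcb11 was at 6.17, 6.41 and 6.50 in Norrin E8.5, against 6.69, 6.63 and 7.14 in wild type E8.5, a difference of -0.46 (limma adjusted p = 0.599). Abca13, which is close to the floor of the array, differed by -0.43, with wild type E8.5 replicate 3 at 5.33 and the other 11 arrays between 4.40 and 4.74. Abcg5 and Abcg8 differed by -0.19 and -0.29. The remaining members lay between -0.39 and 0.34.

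The difference of the Norrin effects, E10.5 minus E8.5, was called for 1 member, Abcb1a, on the lower side, against 0.0550% of all genes. At -1.99 (SE 0.28, limma adjusted p = 0.0261), the deficit in Norrin was larger at E10.5 than at E8.5. With the block the adjusted p was 0.000255, and 1 member was lower against 1.25% of all genes. The call was kept in 3 of the 12 fits that left out 1 array, with adjusted p between 0.00772 and 0.0977. Those were the fits without wild type E8.5 replicate 3, wild type E10.5 replicate 3 or Norrin E10.5 replicate 2. The value itself stayed between -2.21 (without Norrin E10.5 replicate 2) and -1.81 (without Norrin E10.5 replicate 3). The call was lost with the mean of the 2 probe sets of the gene (-2.07, adjusted p = 0.0645) and with the more variable one (-2.16, 0.326). At E8.5 all Abcb1a levels, 5.50 to 6.41, lay below the median gene level of 7.68. Whether these low levels limit the E8.5 difference was not tested. For Abcb1b the difference of effects was -1.01 (SE 0.71, limma adjusted p = 0.868), so no difference between stages was shown for it. For Abcg5 and Abcg8 it was -0.01 and 0.27.

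Comparisons between stages carry a limit. Arrays of a stage shared 26 to 93 identical values in every pair, and the 36 pairs across stages shared 0, so by this sign each stage was normalized in its own run, and stage and run cannot be told apart. The median gene was higher at E10.5 by 0.15 in Norrin and 0.14 in wild type on the deposited scale, and lower by 0.14 in both when arrays were centred on their medians. Values below are on the deposited scale, and the value relative to the median gene follows where stated.

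Between stages, 14 members were higher and 2 lower at E10.5 than at E8.5 in Norrin, and 15 higher and 1 lower in wild type. That is 35.6% of members in both, against 37.9% of all genes in Norrin (28.2% higher, 9.69% lower) and 32.5% in wild type (25.4% higher, 7.12% lower). The groups did not overlap for 53.3% of members in Norrin and 48.9% in wild type, against 51.7% and 43.9% of all genes. The split depends on the scaling: with median-centred arrays it was 11 higher and 7 lower in Norrin (14.8% and 27.5% of all genes) and 9 higher and 11 lower in wild type (13.5% and 25.4% of all genes). With joint quantile normalization it was 11 higher and 4 lower in Norrin (16.9% and 20.9% of all genes) and 11 higher and 8 lower in wild type (16.0% and 20.1% of all genes). In both genotypes and under all 3 scalings, 8 members were called higher: Abca1, Abca8a, Abca8b, Abca9, Abcb1b, Abcb11, Abcc6 and Abcc8. Abcg4 was called lower in all of them. The share of all genes under this joint rule is not given, so these joint counts are not read as results about the members. None of the 16 stage calls in either genotype changed sign under any alternative run. Without both trophoblast-rich pools Abcb1b lost its Norrin call (1.83, adjusted p = 0.0771), and the counts were 11 higher and 3 lower in Norrin and 14 higher and 2 lower in wild type. Shares of all genes are not given for the stage counts of that fit, so those are not read as results about the members. With array weights 29 members were called in both genotypes, against 64.0% of all genes in Norrin and 59.3% in wild type.

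Tissue markers moved with stage as well. Macrophage markers were higher at E10.5 for 6 of 8 in Norrin and 7 of 8 in wild type (4 of 8 in both under the other 2 scalings), and their mean log2 level was 7.68 to 8.64 in Norrin E10.5 against 6.73 to 6.97 in Norrin E8.5, and 8.37 to 8.87 in wild type E10.5 against 7.03 to 7.42 in wild type E8.5. Mesenchymal markers were higher for 6 of 8 in Norrin and 4 of 8 in wild type, with sums of 98.0 to 99.5 in Norrin E10.5 against 90.3 to 94.0 in Norrin E8.5, and 94.1 to 95.3 in wild type E10.5 against 86.9 to 90.9 in wild type E8.5. Parietal endoderm markers were higher for 6 of 8 in Norrin (2 after median centring) and 1 of 8 in wild type. Erythroid markers were lower for 5 of 9 in Norrin and 0 of 9 in wild type (7 and 2 after median centring). Neural markers were higher for 4 of 8 in both genotypes, and 1 was lower in wild type. Decidua markers were higher for 3 of 8 in Norrin and 4 of 8 in wild type, where 1 was lower. Of 8 endothelial markers, 1 was higher and 1 lower in Norrin, and 1 higher and 2 lower in wild type. Of 7 visceral endoderm markers, 2 were higher and 1 lower in Norrin, and 0 were called in wild type. Of 7 trophoblast markers, 1 was lower in each genotype. Of all genes, 28.2% were higher and 9.69% lower in Norrin, and 25.4% and 7.12% in wild type. Without both trophoblast-rich pools, 3 of 8 macrophage, 3 of 8 mesenchymal and 3 of 8 parietal endoderm markers were called higher in Norrin. The part of these markers in the stage differences of ABC genes was not tested.

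**Figure D4:**
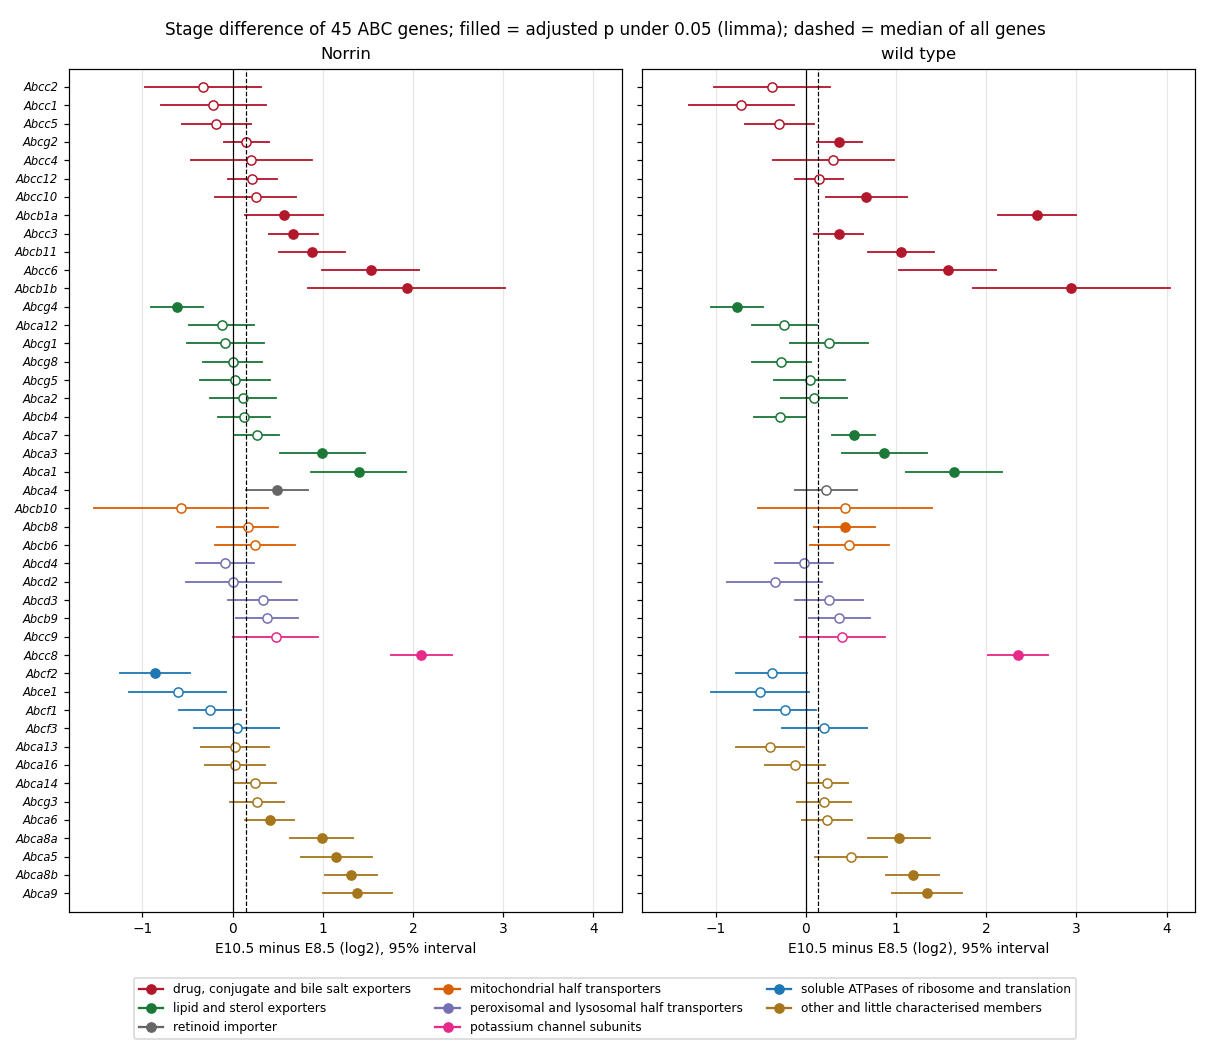
E10.5 minus E8.5 difference (log2) of each of the 45 members in Norrin, left, and wild type, right, with its 95% interval from limma, grouped by role; the dashed line is the median of all genes. Abcb1a stands at 0.57 in Norrin and at 2.56 in wild type, and Abcc8 beyond 2 in both.

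The P-glycoprotein genes were the members with the largest stage difference in wild type. Abcb1b was higher at E10.5 by 1.93 in Norrin and 2.94 in wild type (1.78 and 2.81 relative to the median gene). Abcb1a was higher by 0.57 in Norrin (limma adjusted p = 0.0388) and by 2.56 in wild type (limma adjusted p = 6.41e-06). The Norrin call of Abcb1a was kept in 7 of the 12 fits that left out 1 array (adjusted p between 0.0162 and 0.165). It was lost without any 1 Norrin array other than Norrin E10.5 replicate 3, and without both trophoblast-rich pools (0.37, 0.251). It was also lost in the fit to the Norrin arrays alone, after median centring or joint quantile normalization, and with the more variable probe set. The wild type E10.5 arrays also enter the Norrin comparison, so these differences are not independent of it.

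Abcc8, the sulphonylurea receptor that forms the potassium channel of insulin-secreting cells, was at 7.08, 6.78 and 6.63 in Norrin E10.5 and 4.65, 4.82 and 4.75 in Norrin E8.5. In wild type it was at 6.91, 7.40 and 7.12 at E10.5 and 4.91, 4.62 and 4.85 at E8.5. The stages were far apart in both genotypes, by 2.09 in Norrin and 2.35 in wild type (limma adjusted p = 3.65e-06 and 2.72e-06). A dimmer probe set, with a mean of 4.66, gave -0.12 in Norrin and -0.08 in wild type. Kcnj11, the gene of its channel pore, lies between it and Abcc6 on chromosome 7. Abcc6, the exporter whose loss in humans causes pseudoxanthoma elasticum, was higher at E10.5 by 1.53 in Norrin and 1.57 in wild type.

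A row of A genes on chromosome 11, chr11:109932206-110337723, holds Abca8b, Abca8a, Abca9, Abca6 and Abca5 in that order. These were looked at together after their values were seen. Abca9 was at 6.50, 6.85 and 6.77 in Norrin E10.5, against 5.11, 5.36 and 5.50 in Norrin E8.5, and at 6.49, 7.17 and 6.99 in wild type E10.5, against 5.41, 5.58 and 5.63 in wild type E8.5. No E8.5 array reached an E10.5 array in either genotype (1.38 in Norrin and 1.34 in wild type). A second probe set of Abca9 gave 0.41 and 0.18.

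Abca8b was higher at E10.5 by 1.31 in Norrin and 1.19 in wild type, and Abca8a by 0.99 and 1.03. Abca5 was higher by 1.15 in Norrin (limma adjusted p = 0.000496) and by 0.50 in wild type (limma adjusted p = 0.0541), and a test of that difference gave an adjusted p of 0.586. Abca6 was higher by 0.41 in Norrin and 0.23 in wild type, and the Norrin value passed the threshold while the wild type value did not, with no call for the difference between them (limma adjusted p = 0.927). The Norrin call of Abca6 was lost without Norrin E8.5 replicate 1, Norrin E10.5 replicate 2 or Norrin E10.5 replicate 3, without both trophoblast-rich pools (0.45, adjusted p = 0.0847), and under both other scalings. The roles of Abca8a, Abca8b and Abca9 in the yolk sac are not known from these data. All but Abca5 of this row stayed below the median gene level of 7.68 in every group, as did 18 of the 45 members.

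**Figure D5:**
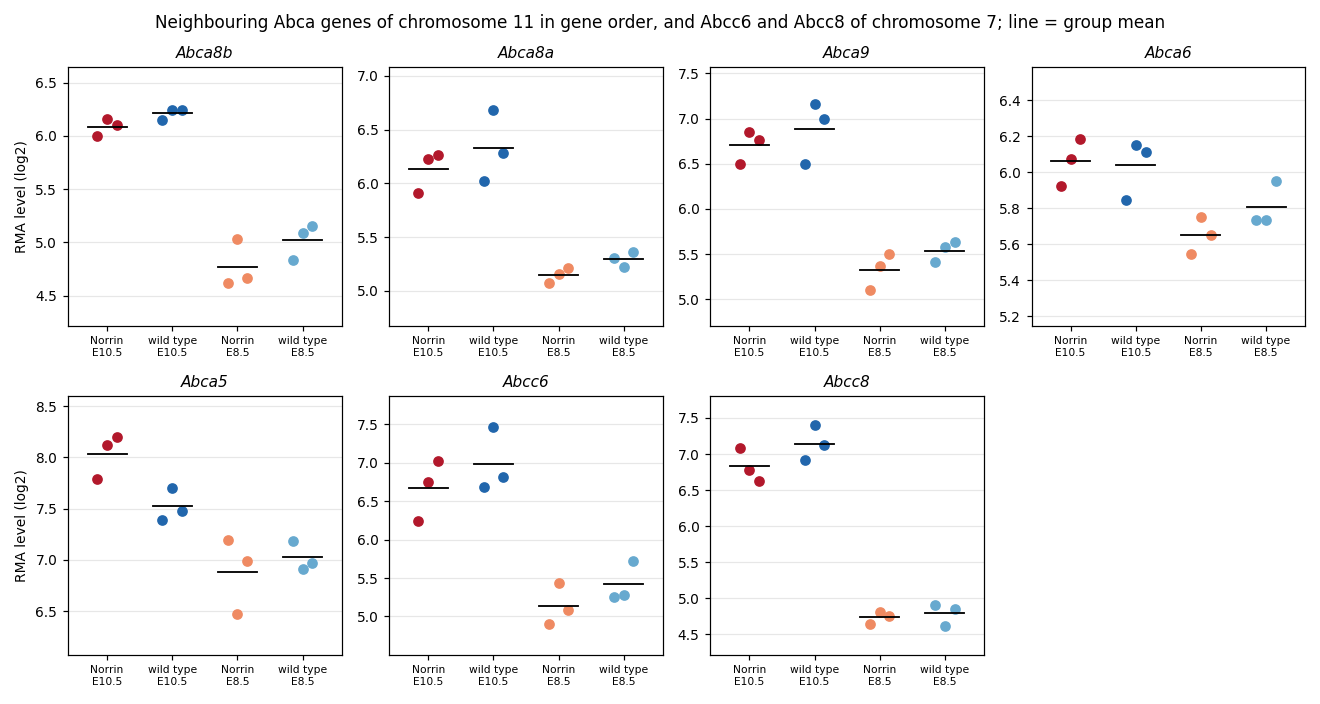
Log2 expression level (RMA) of the 5 neighbouring Abca genes of chromosome 11, and of Abcc6 and Abcc8, in each of 12 pools, with 1 point per array and a line at each group mean. For Abca8b, Abca8a, Abca9, Abcc6 and Abcc8 every E10.5 point is above every E8.5 point.

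Among lipid exporters, Abca1 was higher at E10.5 by 1.40 in Norrin and 1.64 in wild type (limma adjusted p = 0.000902 and 0.000373). Its probe sets agreed in direction, at 0.93 to 1.40 in Norrin and 1.55 to 1.64 in wild type. Abca3, the exporter of surfactant lipids in lung, was higher by 1.00 in Norrin and 0.87 in wild type. The wild type call of Abca3 was lost after median centring. Abcb11 was higher by 0.88 in Norrin and 1.05 in wild type. Abcg4 was lower at E10.5 by -0.62 in Norrin and -0.76 in wild type. Its wild type call was lost with the more variable probe set.

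Abcf2, a soluble ATPase of the ribosome group, was at 9.45, 9.02 and 8.98 in Norrin E10.5 and between 9.93 and 10.09 in Norrin E8.5. These did not overlap (-0.86, limma adjusted p = 0.00297), while in wild type the difference was -0.38 (limma adjusted p = 0.130). The difference of these differences, -0.48, was not called (limma adjusted p = 0.791), and a second probe set gave 0.20 in Norrin and 0.32 in wild type. The other members called higher at E10.5 were Abca4 and Abcc3 in Norrin, and Abca7, Abcb8, Abcc3, Abcc10 and Abcg2 in wild type, with differences of 0.37 to 0.67. In the 12 fits that left out 1 array, the Norrin call of Abca4 was kept in 9. In wild type the call was kept in 12 for Abca7, 1 for Abcb8, 3 for Abcc3, 9 for Abcc10 and 8 for Abcg2. Under both other scalings, Abca4 lost its Norrin call, and Abca7, Abcb8, Abcc3 and Abcc10 lost their wild type calls. Abcg2 lost its wild type call after median centring but not after joint quantile normalization. Without both trophoblast-rich Norrin pools, which enter the wild type contrast through the shared spread alone, the wild type calls of Abcb8 (adjusted p = 0.0781) and Abcc3 (0.0784) were lost and Abca5 was called (0.0346).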

How the data were processed

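Expression was measured in 12 pools on 1 array each. The authors deposited log2 values, which the submitters' processing notes credit to RMA with no version given. Their table held 45101 probe sets. Stage runs were apart, as described above. Names came from the platform annotation: 34945 probe sets had 1 gene, 932 several and 9160 were unnamed here, and 64 controls were left out. Of the named ones, 34741 matched RefSeq gene IDs. Promoters are RefSeq's, on GRCm38.p6.

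The test was limma 3.58.1 in R 4.3.3 on the log2 values, with 1 mean per group over 12 arrays (8 residual and 4.17 prior degrees of freedom), two-sided, with Benjamini-Hochberg adjustment over all 18193 genes per contrast and 0.05 as the threshold. The steps were tested on simulated data. No depth exists for arrays, and their number limits the precision.

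Same-numbered arrays of a stage deviated together from their group means (correlations of 0.51, 0.21 and 0.22 at E10.5 and of 0.73, 0.32 and 0.73 at E8.5). Arrays of unlike number gave -0.35 to 0.16 at E10.5 and -0.72 to 0.30 at E8.5, the highest being close to the lowest same-numbered values. Replicate number within the stage was taken as a pairing on this ground and used as a block in an alternative fit. Alternatives also changed scaling, array weights, variance prior, low-value filter, probe set choice and the arrays in the fit.

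Every member is accounted for. Named with values were members called in a Norrin contrast, otherwise up to 5 per direction with non-overlapping groups, up to 5 called per direction between stages, the pairs Abcb1a with Abcb1b and Abcg5 with Abcg8, relatives or probe sets that disagree, and up to 4 called genes of each list. The members, the lists (regulators, partners, tissue markers) and the tests were chosen with earlier results of these data known.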

Additional observations from a re-analysis of the deposited data

Results flagged for a closer look

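The Norrin difference of Abcb1a was called as different between stages, a call that rests on few arrays. The test of the difference itself, E10.5 minus E8.5, gave -1.99 (log2, SE 0.28, limma adjusted p = 0.0261), from a Norrin difference of -2.68 at E10.5 and -0.69 at E8.5. All 3 Norrin pools were lower than all 3 wild type pools at either stage. At E8.5 all levels, 5.50 to 6.41, lay below the median gene level of 7.68. The call was kept in 3 of the 12 fits that left out 1 array (adjusted p between 0.00772 and 0.0977) and without both trophoblast-rich Norrin pools (0.0381), and was lost with the mean of the 2 probe sets (0.0645) and with the more variable one (0.326).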

How the results depend on the processing

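Over the named single-gene results, 801 values under an alternative were computed for 36 results, of which 744 kept direction and side of the threshold, 22 gained and 25 lost the call, and 10 turned direction. The turned values belong to Abcg5 and Abcg8. Abcg5 at E10.5 was 0.0083 with array weights, and ran between -0.39 and 0.0025 with 1 array left out, the upper value being without wild type E10.5 replicate 2. Abcg8 at E10.5 was 0.020 with array weights, and ran between -0.084 and 0.062 with 1 array left out, above 0 without wild type E10.5 replicate 2 (0.044) or Norrin E10.5 replicate 1 (0.062). The difference of effects of Abcg5 was 0.28 with array weights and 0.085 without both trophoblast-rich Norrin pools, and ran between -0.19 and 0.20 with 1 array left out, above 0 without wild type E10.5 replicate 2 (0.20), Norrin E10.5 replicate 2 (0.12) or Norrin E8.5 replicate 3 (0.048).

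The replicate block within the stage raised the count of called members to 7 at E10.5 (13.2% of all genes), against 2 without it (4.07%). It raised the count to 1 at E8.5 (1.41% of all genes), against 0 (0.0770%). It left 1 for the difference of effects, and stage contrasts cannot carry it. As a single block across stages, where same-numbered arrays did not pair, the E10.5 count was 1. Array weights, which ran between 0.22 and 8.03, gave 8 at E10.5 (12.7% of all genes called), 18 at E8.5 (28.3%), 7 for the difference of effects (2728 of 18193 genes) and 29 in both stage contrasts (64.0% in Norrin, 59.3% in wild type). The weight of 8.03 was that of Norrin E8.5 replicate 2, a trophoblast-rich pool, and wild type E8.5 replicate 2 had 5.14. The other E8.5 arrays had 0.22 to 0.45, so weighted values of E8.5 rest mostly on replicate 2 of each group. Without both trophoblast-rich Norrin pools, chosen after seeing the data, the counts were 1 at E10.5 (2.64% of all genes) and 0 at E8.5 (0.00550%). They were 1 for the difference of effects, 14 for stage in Norrin and 16 in wild type. For the difference of effects the count was 0 with the mean of probe sets and with the probe set of largest variance. The filter on low values, which tested 27 members, left 8 stage calls in each genotype, against 16. Leaving out 1 array in turn gave 1 to 3 calls at E10.5, 0 to 0 at E8.5, 0 to 1 for the difference of effects, 13 to 17 for stage in Norrin and 12 to 17 in wild type. At E10.5, Abcb1b lost its call without any 1 of wild type E8.5 replicate 1, Norrin E8.5 replicate 2, Norrin E10.5 replicates 1 and 2 or the wild type E10.5 arrays. Where no share of all genes stands beside a count here, the count cannot be read as a result about the members. The cause of these shifts was not tested.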
